A study of Caenorhabditis elegans with 20 samples.

Results

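The synthetic auxin 5-Ph-IAA was tested on its own in dauer larvae that have no TIR1 to bind it. The comparison holds 10 of the 20 libraries of the series, 5 from animals on 5-Ph-IAA and 5 from animals of the same strain on solvent, chosen by the condition named for each. Both groups were strain OH14654, *daf-2(e1370); daf-16(ot853)*, in which the endogenous DAF-16 carries mNG and a degron tag and the temperature-sensitive insulin receptor allele arrests larvae as dauers. The treated plates held 100 µM 5-Ph-IAA and the solvent plates 0.2% ethanol, a level that the treated plates shared. Animals were grown on *E. coli* at 25°C for 3 days, and RNA was taken from about 24000 whole dauers per sample. The other 10 libraries came from strain OH17582, which adds *otSi2*, a transgene in which the *ges-1* promoter drives TIR1(F79G) in the intestine. There the ligand also degrades intestinal DAF-16, so that a direct effect of the ligand and an effect of losing DAF-16 cannot be told apart in that strain.

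In the auxin-inducible degron system, the ligand bridges a tagged protein and the plant F-box protein TIR1, and the tagged protein is ubiquitinated and destroyed. Without TIR1 the ligand is simply a foreign indole compound to the worm. *C. elegans* handles foreign small molecules in steps: cytochrome P450 (CYP) and flavin monooxygenase enzymes oxidize them, UDP-glucuronosyltransferases (UGTs) and glutathione S-transferases (GSTs) attach sugar or glutathione, and ABC transporters export the products. Many of these genes are expressed in the intestine, and several CYP genes of the *cyp-35* family are textbook reporters of exposure to foreign compounds.

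The libraries on 5-Ph-IAA held 10230512 to 12680810 reads on genes, with a median of 11168993, and those on solvent held 6249223 to 12323401, with a median of 8303396. The difference in mean log2 reads was 0.44 (exact two-sided permutation p = 0.0397, adjusted p = 0.218 over 11 summed marker and library measures), and its part in the results was not tested. Ribosomal RNA made up 4.88 to 7.07% of reads with 5-Ph-IAA and 4.52 to 6.97% with solvent. Summed markers of intestine, body wall muscle, neurons and pharynx differed by −0.04 to 0.05 on the log2 scale between the groups. The dauer cuticle genes *col-2*, *col-40* and *cut-1* summed to 1240 to 3180 normalized counts with 5-Ph-IAA and 1170 to 3610 with solvent, so that the labelled stage carried its markers in every library. The solvent library of replicate 5 stood apart by its transcripts of adult tissues. They are given beside the collagens below, with those of the same-numbered solvent library of the TIR1 strain. The transcript of *daf-16* itself was at 8230, 8810, 8850, 8590 and 8920 normalized counts with 5-Ph-IAA, against 7970, 8560, 8720, 8540 and 8470 with solvent (log2 fold change 0.04, 95% interval −0.04 to 0.12), and *daf-2* had a log2 fold change of 0.03 (−0.06 to 0.12).

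In the fit that did not use replicate numbers, few genes were called for the ligand alone. Of the 17090 genes tested (mean of 2 or more normalized counts), limma called 5 (0.0293%) at a Benjamini-Hochberg adjusted p under 0.05 and a change of at least 1.5-fold: *ugt-41*, *irg-5*, *cyp-35C1* and *cyp-35A1* rose and *col-41* fell. At any fold, 7 genes (0.041%) passed, and *lro-1* and *cyp-35A2* joined the list. At an unadjusted p under 0.05 there were 835 genes, 395 of them fitted higher (2.31%) and 440 lower (2.57%). On the reads recovered from the table, edgeR called 4 genes, limma voom 4 and DESeq2 12. With the replicate number as a block, limma called 18, and 72 with the block and only these 10 libraries. All 5 libraries with 5-Ph-IAA lay above all 5 with solvent for 108 genes (0.632%) and below them for 104 (0.609%). Of the 7 genes past the adjusted threshold, 5 lie on chromosome V, which carries 22.2% of the genes tested, and the other 2 on X.

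The precision behind these counts depended on the level of a gene. The 95% interval of the log2 fold change reached 0.15 to either side in the median of the 7891 genes with a mean of at least 100 normalized counts, and 1.02 in the median of the 4211 genes with a mean under 10. For 10240 genes (59.9%) the whole interval lay within 1.5-fold of no change in either direction. The remaining genes include many for which a change of that size was not detectable at this depth and spread.

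**Figure D1:**
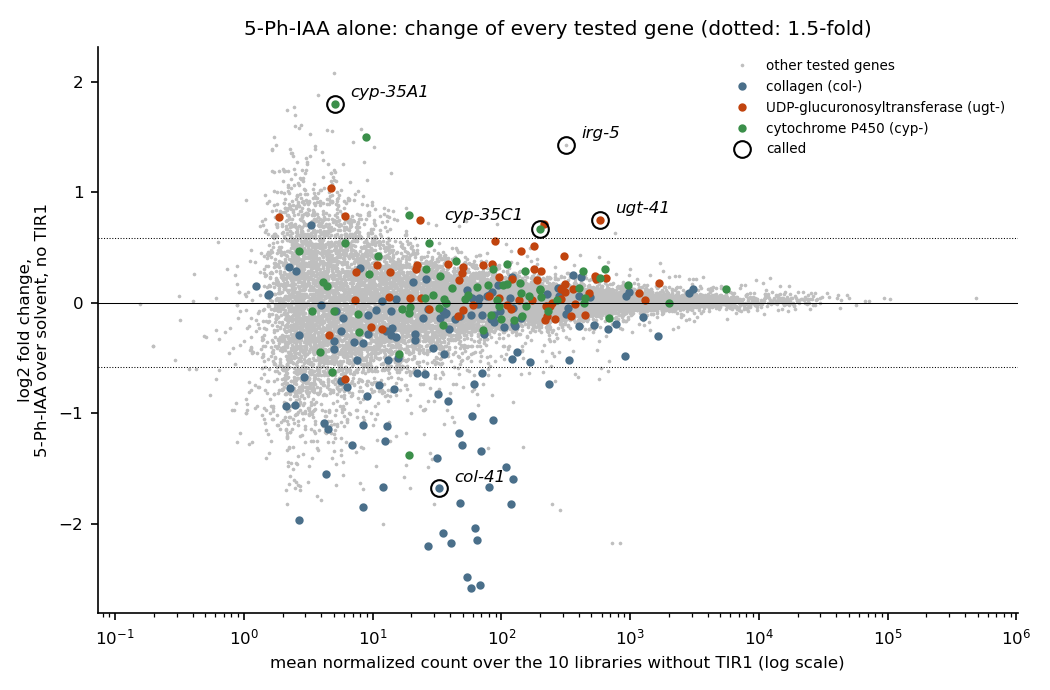
Log2 fold change of 5-Ph-IAA over solvent in the strain without TIR1 against the mean normalized count of the 10 libraries (log scale), 1 point for each of the 17090 genes tested, with 1.5-fold marked by dotted lines. The 5 called genes are ringed: *ugt-41*, *cyp-35C1*, *cyp-35A1* and *irg-5* above the line and *col-41* below it, among other collagens with negative values that were not called.

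The gene with the smallest p was *ugt-41*, a UGT (V:7161068-7163595, minus strand; WBcel235). It was at 615, 663, 699, 905 and 778 normalized counts with 5-Ph-IAA, against 386, 372, 392, 505 and 517 with solvent. The groups did not overlap, and the lowest treated library was above the highest solvent library. The log2 fold change was 0.75 (95% interval 0.54 to 0.96, limma adjusted p = 0.00194, n = 5 each), and it stayed between 0.67 and 0.82, with the call kept, under all 25 alternatives of processing, tool and left-out library that were run on it, and when each of the 10 TIR1-strain libraries that share the fit was left out.

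Among CYP genes, *cyp-35C1* (V:13896663-13898487) was at 240, 229, 234, 295 and 227 normalized counts with 5-Ph-IAA, against 164, 136, 153, 180 and 135 with solvent. Replicate 4 was the highest library of each group. The log2 fold change was 0.67 (0.46 to 0.88, limma adjusted p = 0.00548), and the call held under all 25 alternatives. *cyp-35A1* (V:7359929-7361773) was at 10.6, 6.2, 8.15, 9.55 and 7.69 normalized counts with 5-Ph-IAA, against 1.12, 3.98, 1.57, 1.35 and 1.15 with solvent. These are 7 to 14 reads in the treated libraries and 1 to 5 in the solvent libraries, and although no library overlapped and the log2 fold change was 1.80 (1.11 to 2.49, limma adjusted p = 0.0402), the call was lost under 17 of 24 alternatives, edgeR (adjusted p = 0.141) and DESeq2 (adjusted p = 0.17) among them. Of the 10 libraries compared, leaving out any but solvent replicate 2 lost the call, at limma adjusted p of 0.0618 to 0.192. Of the 10 TIR1-strain libraries in the same fit, leaving out each of 7 kept the call and each of 3 lost it, at adjusted p of 0.0311 to 0.0599.

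Its neighbour *cyp-35A2*, 545 bases away on the same strand with no protein-coding gene between them, had many more reads. It was at 661, 676, 685, 747 and 757 normalized counts with 5-Ph-IAA, against 539, 550, 589, 568 and 620 with solvent. All treated libraries were higher by a small margin, a log2 fold change of 0.30 (0.18 to 0.41, limma adjusted p = 0.0461), which stayed positive under all 25 alternatives but passed 0.05 in only 11 of them. How reads that match several paralogs were assigned is not given in the sources used here, so that the reads on *cyp-35A1* and its close paralogs are uncertain.

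*irg-5* (V:13737010-13738474) is an infection response gene, known as a gene that pathogens induce. It was at 415, 539, 384, 563 and 441 normalized counts with 5-Ph-IAA, against 146, 161, 153, 195 and 207 with solvent. The ratio of means was 2.72, the largest of the 3 called genes that rose and had a mean above 10, and the groups did not overlap. The log2 fold change was 1.43 (0.99 to 1.87, limma adjusted p = 0.00458), and the call was lost only with limma voom (adjusted p = 0.059). The other 6 infection response genes tested were not called, with log2 fold changes of −0.51 to 0.41, and the median of the list was −0.07 beside 0 for all genes tested.

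*col-41* (X:15175032-15176481), a cuticle collagen, was at 11.4, 14.2, 9.77, 13.4 and 28.8 normalized counts with 5-Ph-IAA, against 44.7, 44.6, 42.5, 36.4 and 84.3 with solvent. Replicate 5 was the highest library of each group. The log2 fold change was −1.68 (−2.22 to −1.13, limma adjusted p = 0.00591), and the call was kept under all 25 alternatives, including −1.48 (adjusted p = 0.0338) without solvent replicate 5. The gene overlaps *ucr-2.2* on the opposite strand, and since the strand setting of the counting is not stated, reads from the 2 genes cannot be told apart.

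*lro-1* (X:6272089-6273768) had the smallest change of the genes that passed. It was at 13400, 12800, 13100, 13600 and 12900 normalized counts with 5-Ph-IAA, against 11400, 10900, 11200, 12000 and 11000 with solvent. Its log2 fold change of 0.22 (0.14 to 0.30, limma adjusted p = 0.0379) was well below 1.5-fold, and 13 of 25 alternatives kept it past 0.05.

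**Figure D2:**
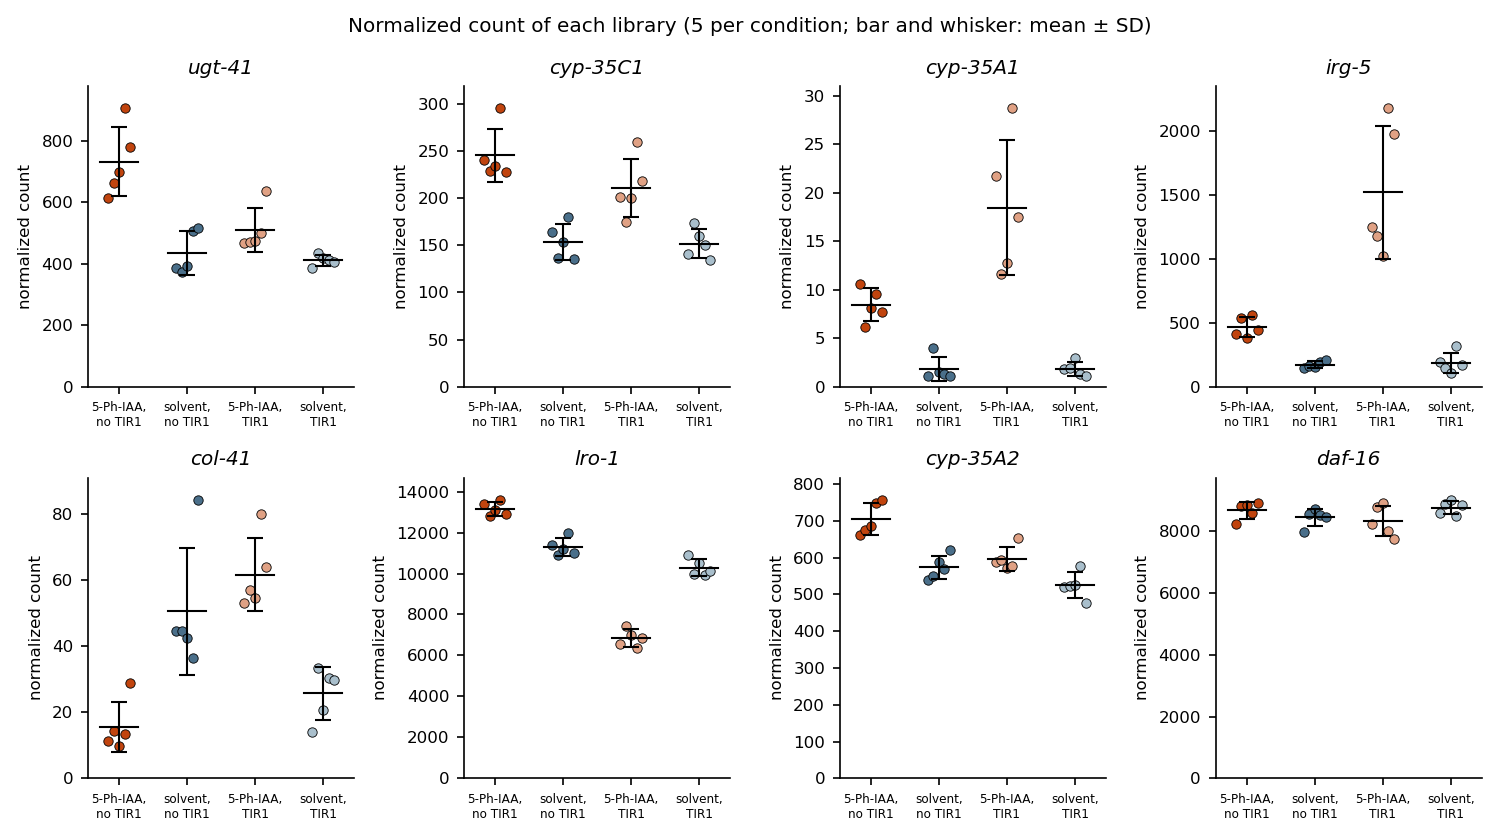
Normalized count of every library for the 7 genes past the adjusted threshold and for *daf-16*, by condition (5 libraries each, mean ± SD, linear axes from 0). In the strain without TIR1, the 5-Ph-IAA points of *ugt-41*, *cyp-35C1*, *cyp-35A1*, *irg-5*, *lro-1* and *cyp-35A2* all lie above the solvent points, those of *col-41* all lie below, and those of *daf-16* overlap.

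The *cyp-35* family did not move as a block. Of its members, *cyp-35A5* (V:3936326-3938597) was at 9.84, 14.2, 7.33, 20.1 and 16.3 normalized counts with 5-Ph-IAA, against 4.47, 5.58, 3.15, 1.35 and 6.93 with solvent. No library overlapped, but with so few reads the log2 fold change of 1.5 (0.65 to 2.35) had a limma adjusted p of 0.349. *cyp-35B1*, which lies 434 bases downstream of it, had a log2 fold change of 0.13 (−0.12 to 0.38) at 326 to 540 normalized counts with 5-Ph-IAA and 312 to 469 with solvent. *cyp-35B2* was at 0.42 (−0.15 to 0.99), *cyp-35A3* at 0.26 (−0.68 to 1.21) and *cyp-35D1* at −0.05 (−0.56 to 0.47) on the log2 scale, and *cyp-35A4* and *cyp-35B3* were under the minimum mean and not tested. The intervals of *cyp-35A3* and *cyp-35D1* are too wide to say whether these genes moved as *cyp-35C1* did, although that of *cyp-35B1* ends below the lower bound of *cyp-35C1*.

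Over all CYP genes, 67 of 74 were tested. Besides the 2 that rose, the third that passed at any fold was *cyp-35A2*, and the list had a median log2 fold change of 0.07. At an unadjusted p under 0.05, 11 were fitted higher and 1 lower (2.31% and 2.57% of all genes), and 5 did not overlap upward and 1 downward (0.632% and 0.609% of all genes). Of those 5, *cyp-13B1* is the only one outside the *cyp-35* family, at a mean of 623 with 5-Ph-IAA and 534 with solvent (log2 fold change 0.22, limma adjusted p = 0.349). The 1 CYP fitted lower at an unadjusted p under 0.05 was *cyp-13A12*. It was at 9.84, 14.2, 14.7, 2.87 and 12.5 normalized counts with 5-Ph-IAA, against 29, 23.9, 15.7, 40.4 and 30 with solvent (log2 fold change −1.38, limma adjusted p = 0.261). No library overlapped, and it was called with DESeq2 and not with edgeR or voom.

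UGTs, which join sugars to small molecules, were the list with the most members on the high side. Of 66 tested, 1 was called, 16 had an unadjusted p under 0.05 and a higher fitted value, and none had one with a lower value. In 7 of them all treated libraries were above all solvent libraries, and in none below. Over all genes tested, 0.0293% were called, 2.31% were fitted higher at that p and 0.632% had all treated libraries above. The median log2 fold change was 0.12 beside 0 for all genes tested, and 47 of the 66 were fitted above 0. Under the 35 alternatives run, the median stayed between 0.09 and 0.16, and the number fitted higher at an unadjusted p under 0.05 between 14 and 23, with 0 to 3 fitted lower. The list was chosen with earlier results known, so that these counts describe it and test nothing.

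Some of the UGT genes on the high side are neighbours. *ugt-13* was at 338, 327, 339, 391 and 371 normalized counts with 5-Ph-IAA, against 280, 251, 227, 292 and 271 with solvent, a log2 fold change of 0.42 (0.25 to 0.59) that just missed the threshold (limma adjusted p = 0.0557). *ugt-14*, 579 bases upstream of it on the same strand of chromosome V, was at 292, 225, 226, 286 and 302 with 5-Ph-IAA, against 165, 128, 157, 198 and 163 with solvent (log2 fold change 0.71, 0.35 to 1.07, limma adjusted p = 0.269). It was called with DESeq2 and with limma voom. In both genes no treated library fell within the range of the solvent libraries.

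A second pair lies around *ugt-41*. *ugt-40*, which is 19103 bases away with 6 other protein-coding genes in between, was at 208, 211, 220, 260 and 158 normalized counts with 5-Ph-IAA, against 160, 138, 151, 163 and 124 with solvent (log2 fold change 0.51, 0.27 to 0.75, limma adjusted p = 0.215). Only treated replicate 5 fell inside the solvent range. Other UGTs without overlap were *ugt-46* (log2 fold change 0.22), *ugt-8* (0.56), *ugt-9* (0.47) and *ugt-61* (0.34), with limma adjusted p of 0.349 to 0.589.

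The other enzyme and transporter lists held no called gene. Over all genes tested, 2.31% were fitted higher and 2.57% lower at an unadjusted p under 0.05. Of 44 GSTs tested, 3 were fitted higher and 3 lower at that p, and the median log2 fold change was 0.04. *gst-35* was at 69.7, 70.9, 66.8, 53.5 and 72.1 normalized counts with 5-Ph-IAA, against 35.7, 30.3, 37.8, 47.1 and 48.5 with solvent (log2 fold change 0.74, 0.37 to 1.11, limma adjusted p = 0.264), and it was called with DESeq2. Among 5 flavin monooxygenases, *fmo-2*, which is known to be induced by hypoxia and fasting, was at a mean of 1910 with 5-Ph-IAA and 1490 with solvent (log2 fold change 0.36, limma adjusted p = 0.801), while *fmo-5* had means of 276 with 5-Ph-IAA and 327 with solvent and no overlap (−0.25, limma adjusted p = 0.349). Of 44 ABC transporters tested, 2 were fitted higher and 5 lower at an unadjusted p under 0.05, with *haf-7* at −0.28 and *pgp-6* at −0.54 on the log2 scale (limma adjusted p of 0.314 and 0.34). No short-chain dehydrogenase (30 tested) or aldehyde dehydrogenase (13 tested) was called, and their medians were 0.01 and 0.03.

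Of the regulators of the response to foreign compounds, none of 21 was called or had an unadjusted p under 0.05, and log2 fold changes ran between −0.07 and 0.20. The list includes the nuclear receptors *nhr-8* (0.11, −0.11 to 0.33) and *nhr-86* (0.11, −0.08 to 0.29), the aryl hydrocarbon receptor gene *ahr-1* (0.06, −0.34 to 0.47), the oxidative stress factor gene *skn-1* (0.04, −0.05 to 0.12) and the Mediator subunit gene *mdt-15* (0.02, −0.06 to 0.10). Over all 208 nuclear hormone receptor genes tested, none was called and the median was 0.02. The 10 targets of SKN-1 had a median log2 fold change of −0.03, the 14 antioxidant enzymes 0.03 and the 11 stress chaperones −0.04, with none called. In the chaperone list the fitted values ran from −0.39 to −0.01, 3 of them with an unadjusted p under 0.05. Over all genes tested, 2.57% were fitted lower at that p.

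**Figure D3:**
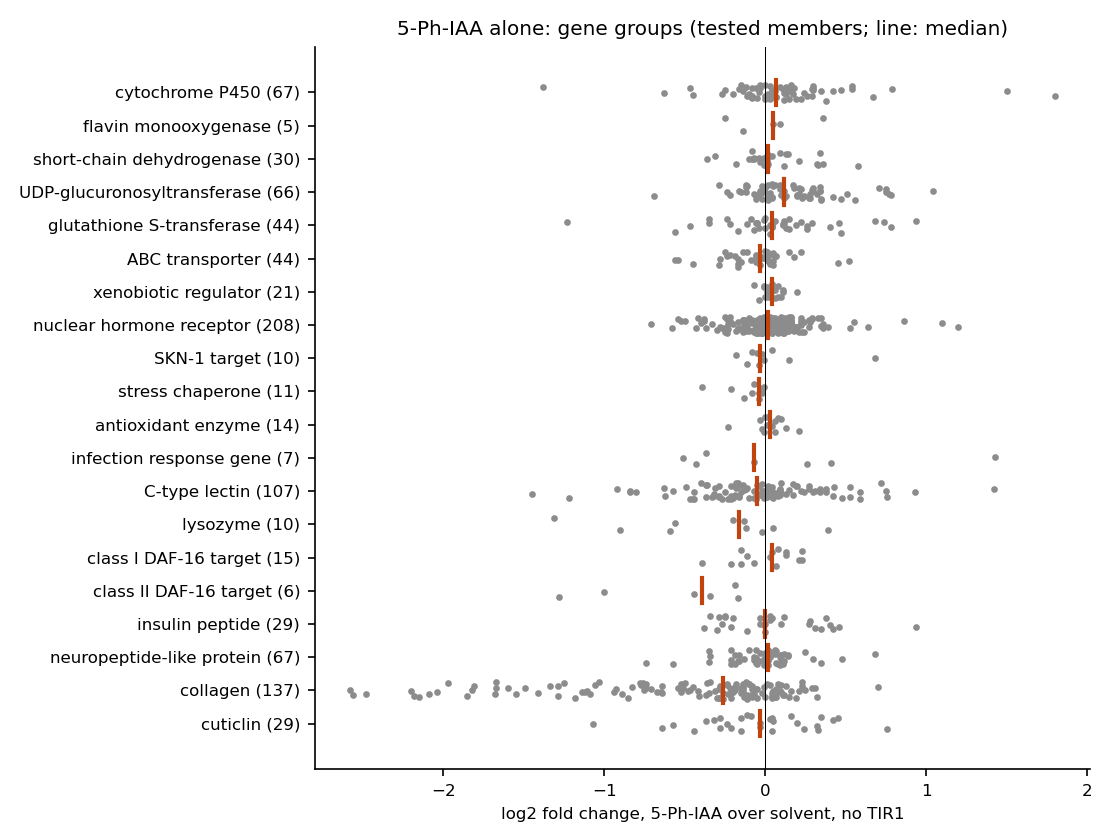
Log2 fold change of 5-Ph-IAA over solvent, strain without TIR1, for the tested members of 20 gene groups (grey points, number tested in brackets; points are spread vertically for sight) with the median of each group as a line. Medians lie near 0 for most groups, at 0.12 for UGTs and at −0.26 for collagens, whose points run down to −2.58.

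Targets of DAF-16 were compared because the tagged DAF-16 is the protein that the ligand is meant to remove, and DAF-16 is active in these dauers. Class I targets, which DAF-16 activates, held 15 genes tested and none called, with log2 fold changes of −0.39 to 0.23 and a median of 0.04. The superoxide dismutase gene *sod-3* was at 566, 505, 533, 576 and 519 normalized counts with 5-Ph-IAA, against 512, 534, 493, 554 and 462 with solvent. Its libraries overlapped, and its log2 fold change of 0.08 had an interval of −0.12 to 0.28. The metallothionein gene *mtl-1* was at 0.23 (0.08 to 0.38, limma adjusted p = 0.569), the small heat shock gene *hsp-12.6* at 0.23 (−0.03 to 0.49) and *hsp-16.41* at −0.39 (−0.67 to −0.11, limma adjusted p = 0.695).

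Class II targets, which DAF-16 represses, held 6 genes tested and none called, although all 6 were fitted below 0, with log2 fold changes of −1.28 to −0.17. *dod-24*, which is also an immune response gene, had a mean of 13.4 ± 6.4 normalized counts with 5-Ph-IAA and 25.9 ± 4.99 with solvent (SD, n = 5 each), a log2 fold change of −1.0 (limma adjusted p = 0.512). Of the class II targets, 3 had an unadjusted p under 0.05, and 1 did without solvent replicate 2 or without solvent replicate 5. Over all genes tested, 2.57% were fitted lower at that p. *dod-19* was at −0.44 (limma adjusted p = 0.964), and the insulin gene *ins-7* was near the limit of detection in both groups, at 0 to 6.52 with 5-Ph-IAA and 1.12 to 5.39 with solvent. None of 11 genes of the insulin pathway was called, with log2 fold changes of −0.08 to 0.08. Of 29 insulin peptide genes tested the highest fitted with over 100 counts was *daf-28*, at a mean of 211 with 5-Ph-IAA and 166 with solvent (log2 fold change 0.35, 0.14 to 0.55, limma adjusted p = 0.46). FMRFamide-like peptide genes (31 tested) and neuropeptide-like protein genes (67 tested) had medians of 0.04 and 0.02, with none called.

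Collagens were the list with the most members on the low side. Of 137 tested, only *col-41* was called, 29 were fitted lower and 0 higher at an unadjusted p under 0.05, and 10 lay entirely below the solvent libraries against 0 above. Over all genes tested these shares were 2.57% fitted lower, 2.31% higher, 0.609% below and 0.632% above. The median log2 fold change was −0.26 beside 0 for all genes tested. *col-90* was at 12.9, 11.5, 15.5, 17.2 and 21.1 normalized counts with 5-Ph-IAA, against 33.5, 46.2, 25.2, 35 and 99.3 with solvent (log2 fold change −1.41, −2.04 to −0.78, limma adjusted p = 0.135). *col-142* was at 15.1, 10.6, 10.6, 11.5 and 5.77 with 5-Ph-IAA, against 21.2, 53.4, 39.4, 35 and 147 with solvent (−2.09, −3.14 to −1.05, limma adjusted p = 0.264). In both genes solvent replicate 5 was by far the highest library. *col-90* overlaps *let-754* and *col-142* overlaps *T15B7.14* on the opposite strand, as *col-41* overlaps its own partner. The same limit holds for *cyp-35B1*, *ugt-40*, *sod-3*, *daf-16*, *col-19* and *ech-1.1*, which also have a partner on the opposite strand.

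The solvent library of replicate 5 was the highest of the 10 libraries for 24 of the 29 collagens, and replicate 2 of the solvent group for 4 others. Without solvent replicate 5 the median of the collagens was −0.19 and 15 of them, in place of 29, were fitted lower at an unadjusted p under 0.05. Without solvent replicate 2 the median was −0.18 with 20 fitted lower, without solvent replicate 3 it was −0.39 with 31, and without solvent replicate 4 it was −0.35 with 36. Over the 35 alternatives the median ranged from −0.39 to −0.11, with 14 to 50 fitted lower and 0 to 4 higher. The summed level of the 137 collagens was 24700, 21900, 19500, 17400 and 22200 normalized counts with 5-Ph-IAA, against 26900, 23600, 18100, 20400 and 30100 with solvent, so that the sums overlapped between the groups. Most of the 29 are minor transcripts, 23 with a mean under 100 over the 10 libraries.

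Summed markers of adult tissues were also lower on average with 5-Ph-IAA, without passing an adjusted test, and their part in the collagen result was not tested. Markers of adult hypodermis, all 5 of them found and 4 tested, summed to 48.5, 64.7, 26.1, 45.8 and 57.7 normalized counts with 5-Ph-IAA, against 53.6, 152, 78.7, 49.8 and 448 with solvent (log2 difference −1.21, exact two-sided permutation p = 0.0714, adjusted p = 0.262 over the 11 measures). Among them *col-19*, the adult-specific collagen, had a mean of 23.4 with 5-Ph-IAA and 105 with solvent, and was at 0 in treated replicate 5. Sperm markers, the *msp* genes, of which 9 of 31 were tested and 1 was at 0 in all 20 libraries, summed to 5.73 to 16.8 with 5-Ph-IAA and 13.4 to 84.3 with solvent (−1.69, exact p = 0.0238, adjusted p = 0.218). The 6 yolk protein genes ranged from 3.84 to 1850 with 5-Ph-IAA and from 87.5 to 14100 with solvent (−2.15, exact p = 0.381), and the 10 oocyte markers from 1480 to 1890 with 5-Ph-IAA and from 1580 to 3020 with solvent (−0.18, exact p = 0.413).

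In each of these sums the highest of the 10 libraries was solvent replicate 5. Among the 5 solvent libraries of the TIR1 strain, replicate 5 was also the highest in each. Its sums were 294 for adult hypodermis, 121 for sperm, 8290 for yolk and 2700 for oocyte markers. In bulk RNA, fewer cells or animals of a kind and less RNA per cell cannot be told apart. With the log2 summed oocyte markers as a covariate, 6 genes were called and the 5 of the call without it were among them. *ugt-41*, *irg-5*, *cyp-35C1* and *col-41* also kept their calls without solvent replicate 5.

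**Figure D4:**
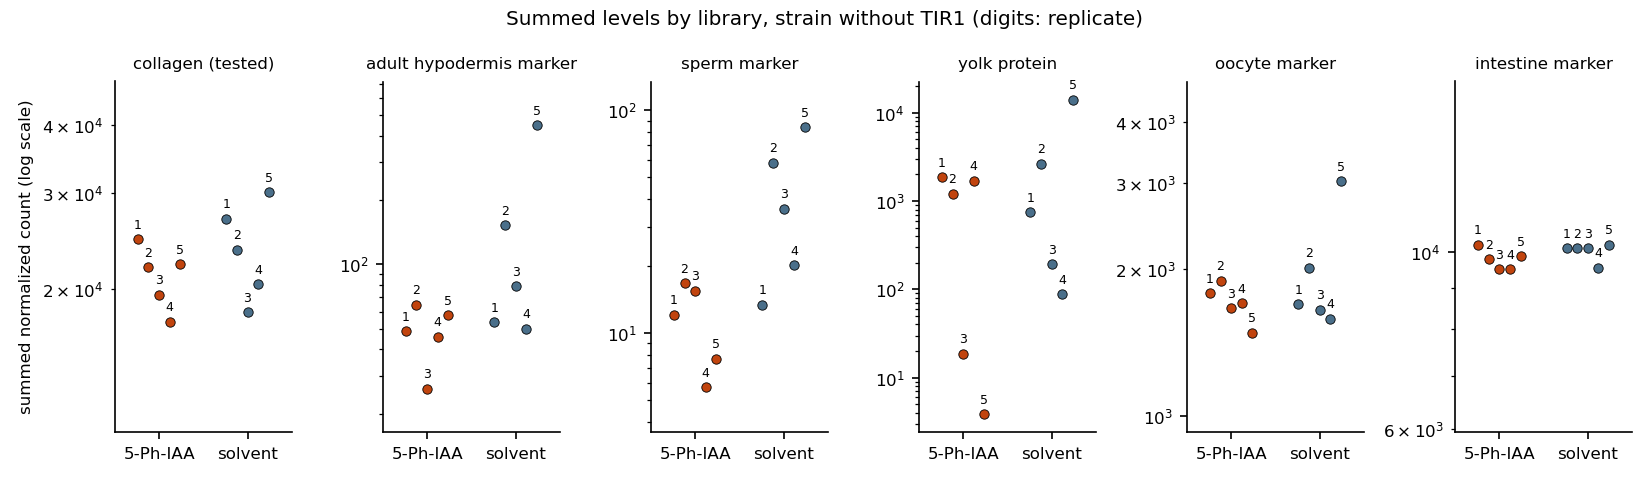
Summed normalized counts (log scale) of the 137 tested collagens and of 5 marker lists in each library without TIR1, 5-Ph-IAA on the left and solvent on the right, with the replicate number at each point. Solvent replicate 5 is the highest of the 10 libraries in the collagen, adult hypodermis (448), sperm (84.3), yolk (14100) and oocyte (3020) panels, and intestine markers lie close together in all 10.

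Of 10 lysozyme genes tested, 5 were fitted lower and 0 higher at an unadjusted p under 0.05 (2.57% and 2.31% of all genes). None was called, and the median log2 fold change was −0.17. The count fitted lower was 3 without treated replicate 1 or 2 or solvent replicate 5, and 2 without treated replicate 4. *lys-7* was at 116, 120, 79.0, 47.8 and 71.1 normalized counts with 5-Ph-IAA, against 210, 155, 124, 113 and 190 with solvent (log2 fold change −0.90, −1.40 to −0.40, limma adjusted p = 0.349). Treated replicates 1 and 2 fell inside the solvent range. Of 107 C-type lectins tested, 2 were fitted higher and 4 lower at an unadjusted p under 0.05, shares near those of all genes, and 26 saposin-like genes had a median of −0.09, none of them called.

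The next genes by p, named after their values were seen, include 3 of protein digestion. *cpr-5*, a cathepsin B-like protease gene, was at 32.6, 26.6, 27.7, 20.1 and 24 normalized counts with 5-Ph-IAA, against 81.5, 55.0, 34.6, 41.8 and 71.6 with solvent (log2 fold change −1.04, −1.46 to −0.61, limma adjusted p = 0.0607). *asp-1*, an intestinal aspartyl protease gene, was at 623, 615, 488, 502 and 437 with 5-Ph-IAA, against 891, 825, 773, 680 and 903 with solvent (−0.62, −0.89 to −0.35, limma adjusted p = 0.124). Neither gene had overlapping groups. *pept-1*, which encodes the intestinal transporter of di- and tripeptides, had means of 469 with 5-Ph-IAA and 631 with solvent (−0.43, limma adjusted p = 0.314), and treated replicate 5 overlapped the solvent libraries. With intestinal TIR1 all 3 genes were fitted higher with the ligand, with log2 fold changes of 2.85 for *cpr-5*, 1.63 for *asp-1* and 0.78 for *pept-1*, and the difference between the strains passed for each (limma adjusted p of 3.92e-10, 2.59e-09 and 3.81e-06).

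On the other side, *T10B5.8* (V:1842044-1844807) was at 876, 987, 892, 977 and 884 normalized counts with 5-Ph-IAA, against 564, 727, 680, 551 and 488 with solvent (log2 fold change 0.63, 0.37 to 0.89, limma adjusted p = 0.0607). *cdr-1*, a cadmium-responsive gene, was at 15.9, 10.6, 12.2, 19.1 and 18.3 with 5-Ph-IAA, against 3.35, 2.39, 6.30, 6.73 and 8.08 with solvent (1.41, 0.74 to 2.08, limma adjusted p = 0.213). In both genes all treated libraries were higher. *C29F3.7* (log2 fold change 0.71, limma adjusted p = 0.109) and *ech-1.1*, an enoyl-CoA hydratase gene (0.83, limma adjusted p = 0.579), converge with 92 bases between them on chromosome V, and neither overlapped between the groups.

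The same ligand was given to the strain with intestinal TIR1, in 10 libraries that share none with the comparison above. One of them, on 5-Ph-IAA, had 3989669 reads and 21.4% ribosomal RNA, and leaving it out is among the alternatives below. There limma called 1130 genes higher (6.61%) and 387 lower (2.26%) with 5-Ph-IAA over solvent. All 5 genes called for the ligand alone were fitted higher in that strain with 5-Ph-IAA, and 2 of the 5, *irg-5* and *cyp-35A1*, met the same rule in the same direction, while *col-41* met it in the opposite one. A limma test of the difference between the 2 ligand effects (the interaction of ligand and TIR1) passed an adjusted p of 0.05 for 3 of the 5. Over all genes tested it passed for 10.8%. The 5 were selected by their change with the ligand alone, which enters this difference, so the 2 shares cannot be compared.

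*irg-5* was at 1250, 1180, 1020, 2180 and 1980 normalized counts with 5-Ph-IAA in the TIR1 strain, against 192, 147, 106, 319 and 174 with solvent. This log2 fold change of 3.05 (2.60 to 3.49) was larger by 1.61 (0.99 to 2.23, limma adjusted p = 0.000563) than that of the ligand alone. With the summed oocyte markers as a covariate the difference was 0.92 (limma adjusted p = 0.323). *cyp-35A1* was at 21.7, 11.6, 12.8, 28.7 and 17.5 with 5-Ph-IAA, against 1.87, 1.90, 2.97, 1.27 and 1.14 with solvent (log2 fold change 2.74, 2.06 to 3.43), and the difference from the effect of the ligand alone, 0.94, had an interval of −0.03 to 1.92.

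*ugt-41* and *cyp-35C1* were also higher with the ligand in that strain, by less than 1.5-fold. *ugt-41* was at 467, 472, 473, 501 and 637 normalized counts with 5-Ph-IAA, against 386, 434, 417, 413 and 405 with solvent (log2 fold change 0.30, 0.09 to 0.51, limma adjusted p = 0.0391). The difference between the strains was −0.45 (−0.75 to −0.15, limma adjusted p = 0.044), and it missed 0.05 under 16 of 32 alternatives. *cyp-35C1* was at 201, 175, 200, 259 and 218 with 5-Ph-IAA, against 141, 173, 160, 150 and 134 with solvent (0.46, 0.25 to 0.68, limma adjusted p = 0.00187), and its difference of −0.21 had an interval of −0.51 to 0.09. *cyp-35A2* had log2 fold changes of 0.19 with TIR1 and 0.30 without, and *cyp-35A5* of 2.39 with TIR1 and 1.5 without.

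*col-41* and *lro-1* went opposite ways in the 2 strains. *col-41* was at 53.1, 56.9, 54.5, 79.9 and 64 normalized counts with 5-Ph-IAA in the TIR1 strain, against 14, 33.3, 20.8, 30.5 and 29.8 with solvent. Its log2 fold change of 1.28 (0.73 to 1.82) differed by 2.95 (2.18 to 3.73, limma adjusted p = 3.02e-06) from that of the ligand alone. *lro-1* was at 6350 to 7450 with 5-Ph-IAA and 9920 to 10900 with solvent, a log2 fold change of −0.59 (−0.67 to −0.51) and a difference of −0.80 (−0.92 to −0.69, limma adjusted p = 1.08e-10). Both differences passed under all 32 alternatives.

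Differences between the strains were not tested over families. The collagens, UGTs and CYPs followed here had an unadjusted p under 0.05 with the ligand alone. All 29 such collagens that were fitted lower were fitted higher with the ligand in the TIR1 strain, 23 of them called. Of all 137 collagens tested, 51 were called higher there and 4 lower (median log2 fold change 0.52). Oocyte markers there summed to 2730 to 6830 with 5-Ph-IAA and 1620 to 2700 with solvent. Of the 16 such UGTs fitted higher, 13 were fitted higher in the TIR1 strain and 1 was called higher. Of these 16, *ugt-14* was called lower (log2 fold change −0.77). Of all 66 UGTs tested, 11 were called higher there and 2 lower (median 0.27). Of the 11 such CYPs fitted higher, 10 were fitted higher and 3 called higher there, and *cyp-13B1* was called lower (−0.68). Of all 67 CYPs tested, 10 were called higher there and 8 lower (median 0.11). Over all genes tested, 6.61% were called higher there and 2.26% lower (median −0.02). DAF-16 class I targets, of which none was called with the ligand alone, held 9 genes called lower in the TIR1 strain, *sod-3* among them (log2 fold change −1.22), and class II targets held 4 called higher. Among the regulators, *nhr-8* was at 0.98 (0.77 to 1.20) in the TIR1 strain and at 0.11 without TIR1, a difference of 0.88 (limma adjusted p = 0.000188).

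**Figure D5:**
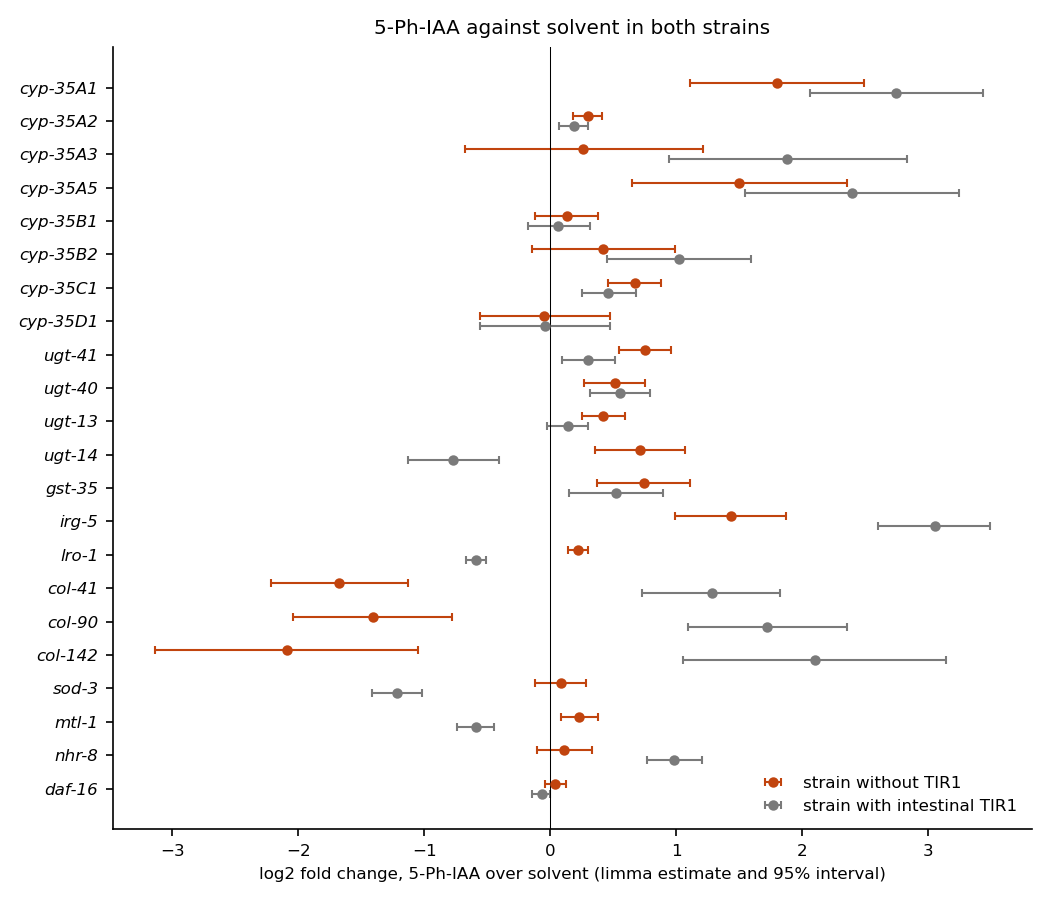
Log2 fold change of 5-Ph-IAA over solvent with its 95% interval (limma) for 22 genes, in the strain without TIR1 and in the strain with intestinal TIR1. The *cyp-35* genes, *ugt-41*, *ugt-40* and *ugt-13* have both points on the same side of 0, *col-41*, *col-90*, *col-142*, *lro-1*, *mtl-1* and *ugt-14* have intervals on opposite sides, and the intervals of *sod-3* and *nhr-8* exclude 0 with TIR1 and include it without.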

How the data were processed

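RNA of whole dauers was depleted of ribosomal RNA and sequenced as single-end reads. Trimmomatic, STAR, featureCounts and DESeq2 size factors were used by the authors in turn; the signal values they deposited are these normalized counts, 1 column per library, with no pooled replicates. Tool versions and the strand setting are not given in the sources used here. Dividing each column by the value of 1 read gave whole reads for 100% of values (tolerance 0.01). The WBcel235 annotation supplied symbols and coordinates for 46921 of the 46925 identifiers.

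Values were tested as log2(normalized count + 1) in limma 3.58.1 under R 4.3.3, with a mean-variance trend and 1 mean for each of the 4 conditions over all 20 libraries, for the 17090 genes whose mean was 2 or more. Fold changes on this scale understate the change of low genes. A call needed a Benjamini-Hochberg adjusted p under 0.05 and 1.5-fold (0.58 on the log2 scale). The fit was tested on simulated data. Summed markers were compared with exact permutation tests, which can reach 0.00794 with 5 against 5. Alternatives were pseudocounts of 0.5 and 5, other filters, quantile normalization, equal totals, array weights, edgeR 4.0.16, DESeq2 1.42.0, limma voom, an oocyte marker covariate, a replicate block, other thresholds, fewer libraries and each library left out; count tests used the recovered reads. Tables were handled with Python 3.11.15 and pandas 2.3.3.

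The comparison and the gene lists were chosen with earlier results of these data known. Named are the genes past the threshold, the 10 largest changes in each direction among genes without overlap and with a mean of at least 10, up to 4 members of each list by p, and fixed genes of the *cyp-35* family, the regulators and DAF-16 targets; others are said to be chosen later. Not every gene of the rule is described.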

Additional observations from a re-analysis of the deposited data

Results flagged for a closer look

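In 7 of 52 gene groups of 5 libraries, 1 library stood apart from its 4 fellows by more than Dixon's 95% limit (0.71 of the range), where chance alone gives about 5 in 100. *col-41* did so in both groups, at 28.8 normalized counts in 5-Ph-IAA replicate 5 and 84.3 in solvent replicate 5. *col-90* was at 99.3 and *col-142* at 147 in solvent replicate 5, the library that was also highest in transcripts of adult tissues. *cyp-35C1* was at 295 and *gst-35* at 53.5 in 5-Ph-IAA replicate 4, 1 high and 1 low. *cyp-35A1* was at 3.98 in solvent replicate 2, and of the 10 libraries compared that was the only one whose omission kept the call of this gene.

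The effect of 5-Ph-IAA differed between the strains, by the interaction test in limma, for *irg-5* (1.61 on the log2 scale, TIR1 strain minus strain without TIR1, adjusted p = 0.000563), *col-41* (2.95, adjusted p = 3.02e-06), *lro-1* (−0.80, adjusted p = 1.08e-10) and *ugt-41* (−0.45, adjusted p = 0.044). The sign of the effect was opposite in the 2 strains for *col-41* and *lro-1*.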

How the results depend on the processing

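The 5 calls became 12 with DESeq2 (7 higher, 5 lower), 10 with DESeq2 and its normal prior, 8 with array weights, 11 with only the 10 libraries without TIR1 and 3 at a 2-fold cutoff. Other settings gave 4 to 7, as did leaving out each of the 20 libraries, of which those with TIR1 were left out from this count as an alternative chosen after seeing the data. *ugt-41*, *cyp-35C1* and *col-41* were called in all 25 fits of other settings, none of the 24 genes followed through these fits changed sign, and *cyp-35A1* was lost in 17 of 24. With the replicate block the count was 18 (8 higher, 10 lower), and 72 (14 higher, 58 lower) with the block and only the 10 libraries. The labels number the replicates in each condition without naming pairs. In the strain without TIR1, same-numbered libraries correlated at −0.026 to 0.125 in their deviations from the group means, against −0.109 to 0.074 for other pairs. Of the 5 treated libraries of that strain, 4 correlated best with their own number. In the TIR1 strain, same-numbered libraries correlated at 0.039 to 0.1, against −0.158 to 0.102 for other pairs. There, 5-Ph-IAA replicates 2, 3 and 4 correlated best with another number. These values do not settle whether same-numbered libraries form pairs. The fit behind the 5 calls did not use the numbers, and the count of calls depends on that choice.

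Of the called genes that met the rule in the TIR1 strain, 1 in place of 2 was left at a minimum mean of 10, where *cyp-35A1* was not tested. Of the 3 with an interaction, 1 was left with the oocyte covariate (*col-41*), and 2 or 3 with each library left out; the cause was not tested. The interaction was not fitted with the DESeq2 prior. Unadjusted, the sperm sum ended at exact p = 0.0556 without 5-Ph-IAA replicate 4 or 5, adult hypodermis at 0.0317 and 0.0238 without solvent replicate 1 or 4, intestine at 0.0397 without solvent replicate 4 (−0.06), and reads on genes at 0.0556 to 0.0794 without any single library but solvent replicate 2. Genes with a mean under 10 are limited most by depth.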

Other observations

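Genes of muscle, lipid and peptide secretion held no call with 5-Ph-IAA alone. The muscle myosin light chain gene *mlc-3* was at 3320, 3450, 3590, 3260 and 3630 normalized counts with 5-Ph-IAA, against 2610, 2980, 2880, 3170 and 3280 with solvent (log2 fold change 0.21, limma adjusted p = 0.261), and *acs-16*, an acyl-CoA synthetase gene, at 161 to 207 with 5-Ph-IAA and 117 to 154 with solvent (0.42, limma adjusted p = 0.135). Both were chosen after their values were seen. The 6 body wall muscle markers tested had log2 fold changes of −0.06 to 0.10 and a median of 0.01, with 3 fitted above 0. Of 12 fatty acid desaturase and elongase genes, 11 were fitted above 0, with a median log2 fold change of 0.07, and the desaturase genes *fat-4* and *fat-3* were at 0.14 and 0.12 (limma adjusted p of 0.485 and 0.648). The 12 genes of peptide secretion had log2 fold changes of −0.46 to 0.28 and a median of 0.06. At an unadjusted p under 0.05, 0 were fitted higher and 1 lower, and in 1 all treated libraries lay below all solvent libraries. Over all genes tested, 2.57% were fitted lower at that p and 0.609% lay below. The 7 kynurenine pathway genes tested had a median of −0.09.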
